A study of Homo sapiens with 12 samples.

Results

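The 4 samples described here compare PC-3 cells that stably overexpressed PIM1 with mock-transfected PC-3 cells, when both also carried transiently transfected wild-type NFATC1. They were chosen by their titles, as the 2 PIM1 + WT samples and the 2 WT samples, out of 12 samples in 6 groups, and every gene on the array was considered. PC-3 is a human androgen-independent prostate adenocarcinoma line. The PIM1 cells held a pcDNA3.1-based PIM1 vector and the others the empty vector. All cells were cotransfected with a td-Tomato marker plasmid and kept under the antibiotic G418, and both groups then received the wild-type NFATC1 vector with Fugene HD. The remaining groups were control and PIM1 cells without NFATC1, and MM and PIM1 + MM cells, which received a multi-mutant NFATC1 that lacks PIM target sites. Each stable line was a single selected pool, so a difference between the 2 pools that predates PIM1 cannot be told apart from the effect of PIM1. The labels do not say that the 2 samples of a group came from separate cultures, so the p-values measure only the spread between these samples, which may be technical.

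PIM kinases are constitutively active serine/threonine kinases that favour survival and motility of cancer cells. NFATC1 is a calcium-regulated transcription factor: calcineurin dephosphorylates it, it enters the nucleus, and it binds DNA beside partners such as AP-1. NFATC1 is also a substrate of PIM1, and the question put to this comparison was which genes differ with PIM1 when wild-type NFATC1 is present.

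RNA was measured as the median signal of each spot on 2-colour Agilent arrays and normalized on the log2 scale, where 1 unit is a factor of 2. Both groups carried the Cy3 dye, so no dye difference entered the comparison. On each of the 2 slides the WT samples lay on array position 2 and the PIM1 + WT samples on position 3, so array position and PIM1 cannot be told apart. Between 65.0% and 69.0% of spots were well above background in these 4 channels. Before normalization the PIM1 + WT channels were dimmer, with median signals of 102 and 86 against 139 and 130.5 for WT. The spike-in controls had median log2 signals of 9.72 and 9.56 in PIM1 + WT and of 10.99 and 11.10 in WT. The part of this brightness difference in the results below was not tested. The median absolute difference between the 2 samples of a group was 0.0526 for WT and 0.0641 for PIM1 + WT, below the 0.0842 to 0.125 of the other 4 groups.

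The targeted genes were examined first. The single PIM1 probe gave 10.22 and 10.10 in the WT samples and 9.90 and 9.96 in the PIM1 + WT samples, so the samples labelled as overexpressing were the lower ones and the groups did not overlap. The difference was -0.23 ± 0.10 (SE, adjusted p = 0.137, limma), and whether the probe lies in the transfected sequence is not known, so the array does not check the PIM1 label. By the paper, real-time qPCR of the microarray samples, a separate measure of RNA, showed overexpression of PIM1 and NFATC1. The 2 NFATC1 probes disagreed. One gave 7.72 and 7.82 in WT and 7.94 and 8.01 in PIM1 + WT, a difference of 0.20. On that probe WT was 0.90 above control and MM 4.42 above control. The other probe gave 8.25 and 8.30 in WT and 7.20 and 7.17 in PIM1 + WT, a difference of -1.09. That probe did not rise with NFATC1 transfection (WT minus control, -0.02).

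Stable PIM1 was accompanied by a limited set of large differences. Of 25900 genes tested, 329 were called (1.27%), that is, they had an adjusted p under 0.05 and a log2 fold change of at least 1, and 210 of them were higher (0.811%) and 119 lower (0.459%) in PIM1 + WT than in WT. In all 329 the difference had the same sign on both slides, and the groups overlapped in 0. A call at these thresholds largely fixes that outcome, here and for the called genes below, so it adds no separate support. At an adjusted p under 0.05 alone, without the fold threshold, 3435 genes were higher (13.3%) and 3602 lower (13.9%). The balance of directions depended on the scaling: when each channel was centred on its median in place of quantile normalization, 108 were higher and 212 lower, and the median of all genes moved from 0.00 to 0.13. Only 201 of the 329 genes were still called in the same direction with that scaling. Of the 329 called genes, 286 had a matched symbol. In 4 called genes one group was not well above background on either array, so the fold is a bound, taken against the lowest signal well above background. CPLX1, a complexin of vesicle fusion, was at least 2.14-fold higher in PIM1 + WT, and PTGFRN, RFLNB and a probe without a symbol, A_33_P3286576, were at least 2.46-fold, 2.05-fold and 3.42-fold lower. They were chosen after their values were seen.

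**Figure D1:**
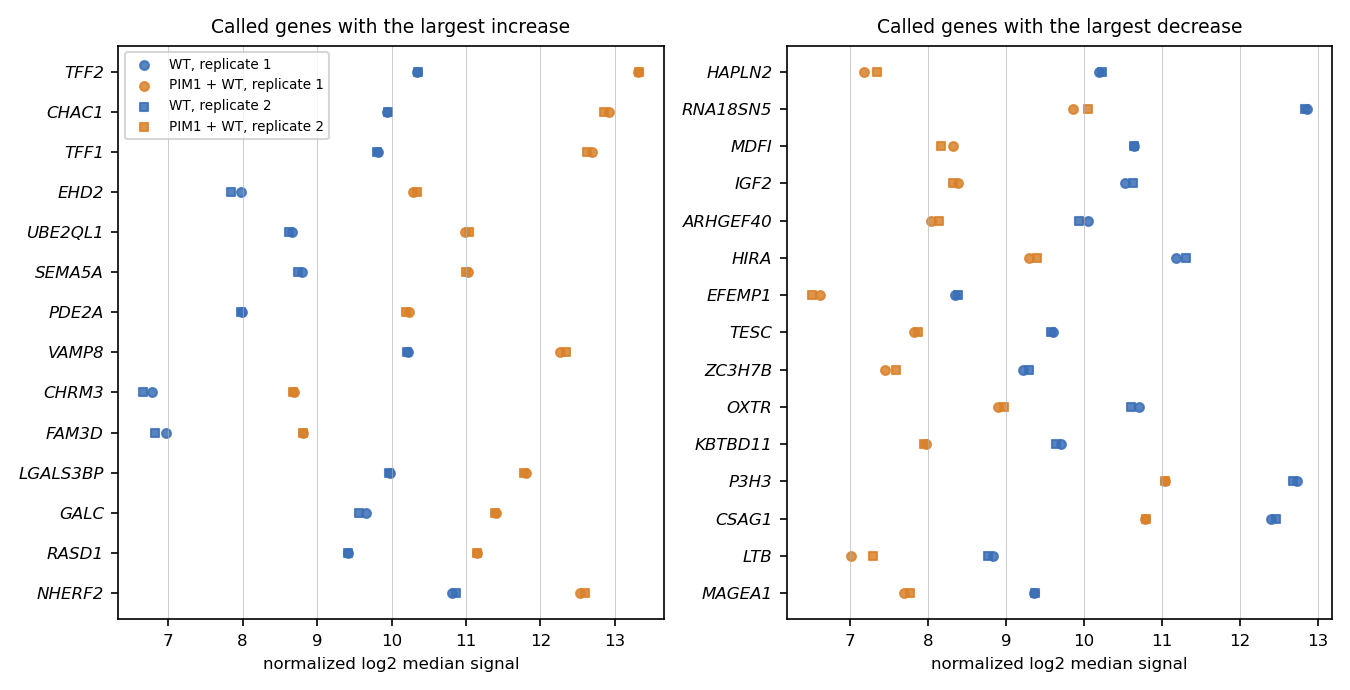
Normalized log2 median signal (x axis) of 14 of the 15 called genes with the largest increase (left) and of the 15 with the largest decrease (right) in each WT sample (blue) and each PIM1 + WT sample (orange), with circles for replicate 1 and squares for replicate 2. The 2 samples of a group lie close together in every gene shown, and the groups do not overlap.

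The largest increases were in secreted epithelial factors. TFF2 and TFF1 encode trefoil peptides, small secreted proteins that protect mucosal surfaces and favour epithelial migration. TFF2 gave 10.34 and 10.36 in WT and 13.31 and 13.32 in PIM1 + WT, and TFF1 gave 9.82 and 9.81 in WT and 12.70 and 12.63 in PIM1 + WT. Both PIM1 + WT samples were far above both WT samples, by 7.79-fold for TFF2 (log2 2.96 ± 0.05 SE, adjusted p = 1.19e-08) and 7.20-fold for TFF1 (2.85 ± 0.06, adjusted p = 1.53e-08, limma). TFF3, the remaining trefoil gene, was near the lower end of the signal range, at 6.46 and 6.49 in WT and 6.82 and 6.92 in PIM1 + WT, and was not called (0.40, adjusted p = 0.0145). AGR2, an endoplasmic reticulum disulfide isomerase of secretory epithelia, rose 2.87-fold, from 11.13 and 11.11 to 12.68 and 12.60. S100P, a secreted calcium-binding protein, rose 2.52-fold, from 12.36 and 12.28 to 13.68 and 13.63. These were the 4 called genes among 14 trefoil and secreted epithelial factors tested, where 0.811% of all genes were called higher, and 0 of the 14 were called lower. The median over the list was 0.23, against 0.00 over all genes. With median centring TFF1 and TFF2 stayed called, while AGR2 (1.21, adjusted p = 0.124) and S100P (1.01, adjusted p = 0.109) did not.

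CHAC1 rose as much as the trefoil genes. It encodes a glutathione-degrading enzyme induced by the ATF4 branch of the integrated stress response, the programme by which cells react to amino acid shortage and unfolded proteins. CHAC1 gave 9.93 and 9.95 in WT and 12.93 and 12.85 in PIM1 + WT, a 7.72-fold rise (2.95 ± 0.05 SE, adjusted p = 1.19e-08, limma). Of 26 stress response genes tested, the only other one called was PHGDH, the first enzyme of serine synthesis, which rose 2.11-fold from 12.57 and 12.49 to 13.61 and 13.61, and was not called with median centring (0.77, adjusted p = 0.228). The transcription factors of the response moved less: ATF4 differed by 0.27 (adjusted p = 0.0539), DDIT3 by 0.47 (adjusted p = 0.00284) and TRIB3, a target of both, by -0.24 (adjusted p = 0.0694). The list held 2 genes called higher, where 0.811% of all genes were, and its median was 0.29. The 250 bases before the start of CHAC1 are shown because the gene rose most in the list, with the letters TGATGNAA, read on either strand as the core of the ATF4 element, in capitals; 3.19% of 27305 RefSeq promoters of this length hold them. The stretch is chr15:40953221-40953470 on the plus strand of GRCh38.p14.
CHAC1: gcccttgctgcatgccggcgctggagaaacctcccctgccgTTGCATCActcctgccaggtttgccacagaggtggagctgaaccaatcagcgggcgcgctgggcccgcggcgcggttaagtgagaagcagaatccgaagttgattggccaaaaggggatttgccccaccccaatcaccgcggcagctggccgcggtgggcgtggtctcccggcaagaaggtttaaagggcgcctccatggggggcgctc

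Interferon-stimulated genes were the list with the most called members. Type I interferon acts through a complex of STAT proteins and IRF9, which binds the interferon-stimulated response element, and the genes it induces restrict viruses at successive steps. Of 38 tested, 13 were called higher and 0 lower, against 0.811% of all genes called higher. At adjusted p alone 29 were higher and 0 lower, and the list's median was 0.80. IFI6, a mitochondrial and endoplasmic reticulum protein induced by interferon, showed the largest rise of the list, 2.90-fold, from 10.06 and 10.11 in WT to 11.57 and 11.67 in PIM1 + WT. BST2, the tetherin that holds virions at the cell surface, went from 9.25 and 9.30 to 10.69 and 10.61, a 2.59-fold rise. IFI44L, an interferon-induced protein of little-known function, went from 8.12 and 8.18 to 9.51 and 9.42. OAS1 and OAS2, sensors that make 2',5'-oligoadenylate on double-stranded RNA, rose 2.44-fold and 2.34-fold, but OAS2 has 3 probes that differed, and the brightest of them gave only 0.37. IFIT1, which binds foreign RNA caps, went from 11.70 and 11.72 to 12.97 and 12.94. MX1 and MX2 (antiviral GTPases), IFITM1, IFITM2 and IFITM3 (membrane proteins that block viral entry), ISG20 (an exonuclease) and IFI44 made up the 13.

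The members below the fold threshold were not all alike. IRF9 differed by 0.75 (adjusted p = 6.5e-05), while STAT2, its partner, differed by 0.00 (adjusted p = 0.986). CMPK2, USP18, GBP1 and PARP14 lay between -0.05 and 0.06. RSAD2 (viperin) differed by 0.47 and ISG15, the ubiquitin-like modifier, by 0.88. With median centring, 5 of the 38 were above both thresholds, IFI6 (1.27, adjusted p = 0.0941) and IFIT1 (0.92, adjusted p = 0.306) not among them, and the list's median was 0.59. In MHC class I presentation, a neighbouring programme, 0 of 18 were called, where 1.27% of all genes were. TAPBP was at 0.66, B2M at 0.65 and the list's median at 0.24.

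**Figure D2:**
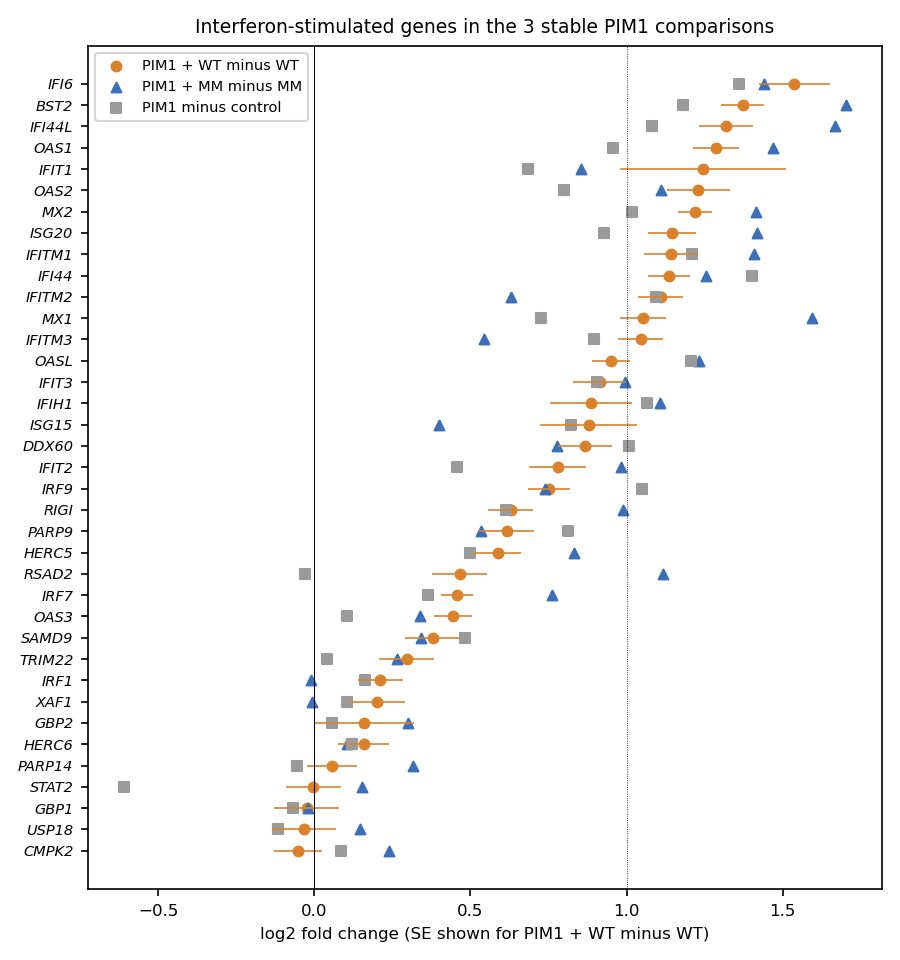
Log2 fold change (x axis) of 37 of the 38 interferon-stimulated genes tested, in order of PIM1 + WT minus WT (orange circles, with SE), with the values of PIM1 + MM minus MM (blue triangles) and PIM1 minus control (grey squares). The list's median is 0.80, 0.80 and 0.76 in the 3 comparisons, and the genes at the bottom lie near 0.

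Promoters of 4 called interferon genes are shown as examples in which the response element can be read. RefSeq promoters were found for 28 of the 38 genes, under 80%, so a share of the list that holds the element is void and none is given. The letters searched were GAAANNGAAA on either strand, in the 250 bases before the gene's start, and 3.07% of 27305 promoters hold them. Of the 13 called interferon genes 76.9% had a RefSeq promoter, also under 80%, so no share is given for them either. Promoters of called interferon genes that do not hold the letters include those of OAS1 and MX1. In the sequences below the matches are in capitals. IFI6 lies on the minus strand of GRCh38.p14 at chr1:27672193-27672442, BST2 on the minus strand at chr19:17405631-17405880, IFIT1 on the plus strand at chr10:89392373-89392622 and IFI44L on the plus strand at chr1:78620198-78620447. IFI6 has 3 matches and the other 3 have 2 each, which overlap in BST2.
IFI6: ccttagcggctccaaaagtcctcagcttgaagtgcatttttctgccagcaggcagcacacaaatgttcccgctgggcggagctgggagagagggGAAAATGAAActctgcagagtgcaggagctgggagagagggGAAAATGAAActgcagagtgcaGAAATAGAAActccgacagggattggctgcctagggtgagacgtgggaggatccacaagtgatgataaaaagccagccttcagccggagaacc
BST2: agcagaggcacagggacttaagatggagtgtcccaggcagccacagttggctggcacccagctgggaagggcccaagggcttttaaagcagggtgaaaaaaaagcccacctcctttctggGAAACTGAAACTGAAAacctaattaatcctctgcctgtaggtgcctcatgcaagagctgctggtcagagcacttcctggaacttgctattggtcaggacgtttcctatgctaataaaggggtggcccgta
IFIT1: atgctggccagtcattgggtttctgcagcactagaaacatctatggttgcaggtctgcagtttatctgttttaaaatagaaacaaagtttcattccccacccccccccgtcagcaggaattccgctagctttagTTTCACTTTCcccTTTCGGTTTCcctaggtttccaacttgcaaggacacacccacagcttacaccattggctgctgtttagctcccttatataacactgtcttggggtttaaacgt
IFI44L: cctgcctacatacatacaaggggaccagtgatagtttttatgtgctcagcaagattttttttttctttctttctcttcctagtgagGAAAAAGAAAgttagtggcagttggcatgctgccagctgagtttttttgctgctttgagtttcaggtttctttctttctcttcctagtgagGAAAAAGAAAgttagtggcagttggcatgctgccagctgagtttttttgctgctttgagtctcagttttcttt

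Of 50 focal adhesion and actin regulators, 3 were called higher, among them ZYX and CORO1B, and 0 lower, where 0.811% of all genes were called higher, and the list's median was 0.02. ZYX, the focal adhesion protein zyxin, gave 12.61 and 12.58 in WT and 14.07 and 14.08 in PIM1 + WT, a 2.79-fold rise. CORO1B, an actin-binding coronin, rose 2.03-fold from 8.76 and 8.79 to 9.80 and 9.79. With median centring neither ZYX (1.15, adjusted p = 0.0931) nor CORO1B (0.87, adjusted p = 0.0615) was called.

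Among 25 integrin subunits only ITGA3 was called, where 0.811% of all genes were called higher. ITGA3, which pairs with ITGB1 in a laminin receptor, gave 12.49 and 12.42 in WT and 13.87 and 13.86 in PIM1 + WT (2.67-fold, adjusted p = 2.16e-06, limma). That call was lost with median centring (1.05, adjusted p = 0.126). ITGA5, the alpha subunit of the main fibronectin receptor, fell just short of the fold threshold. It gave 9.64 and 9.66 in WT and 10.66 and 10.58 in PIM1 + WT, without overlap (0.97 ± 0.09 SE, 1.96-fold, adjusted p = 6.3e-05). At adjusted p alone 7 of the 25 were higher and 3 lower, where 13.3% and 13.9% of all genes were. Of the beta subunits, ITGB4 differed by 0.81, ITGB1 by 0.54 and ITGB2 by -0.55. The alpha subunit ITGAV was at 9.85 and 9.85 in WT and 9.39 and 9.46 in PIM1 + WT (-0.42), and ITGAE differed by -0.60. Among genes chosen after their values were seen, 2 of 12 laminin chains were called higher, LAMA5 at 2.80-fold and LAMB2 at 2.16-fold, which encode chains of basement membrane laminins. Over all genes 0.811% were called higher. SEMA5A, a membrane semaphorin known from axon guidance, rose 4.73-fold from 8.80 and 8.74 to 11.03 and 10.999.

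Of 37 endocytic recycling genes, EHD2, STXBP2 and RAB11B were the 3 called higher, where 0.811% of all genes were, and the list's median was 0.11. EHD2, an ATPase at the neck of caveolae, rose 5.30-fold from 7.98 and 7.85 to 10.29 and 10.34. STXBP2, a syntaxin-binding protein of regulated exocytosis, rose 2.37-fold, and RAB11B, a GTPase of recycling endosomes, 2.19-fold. VAMP8, a SNARE of late endosomes and of secretory granules that is not on that list, rose 4.25-fold from 10.22 and 10.21 to 12.27 and 12.34.

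The other genes with large increases act in signalling, in lysosomes or outside the cell. CHRM3, a muscarinic acetylcholine receptor, went from 6.78 and 6.67 in WT to 8.69 and 8.67 in PIM1 + WT, and PDE2A, a phosphodiesterase of cyclic nucleotides, from 7.99 and 7.98 to 10.23 and 10.20. RASD1, a small GTPase inducible by glucocorticoid, and NHERF2, a PDZ scaffold of membrane proteins, rose 3.32-fold and 3.30-fold. GALC, the lysosomal galactosylceramidase, rose 3.45-fold from 9.65 and 9.56 to 11.40 and 11.39. LGALS3BP, a secreted galectin-binding glycoprotein, went from 9.98 and 9.96 to 11.81 and 11.78, and FAM3D, a secreted cytokine-like protein of the gut, from 6.96 and 6.82 to 8.80 and 8.81. UBE2QL1, a protein related to ubiquitin-conjugating enzymes, rose 5.16-fold. In each of these 8 genes both PIM1 + WT samples lay above both WT samples.

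The most strongly lowered genes included matrix proteins, a growth factor and germline genes. HAPLN2, a link protein that joins hyaluronan to proteoglycans, gave 10.19 and 10.23 in WT and 7.17 and 7.35 in PIM1 + WT, and fell 7.71-fold (-2.95 ± 0.11 SE, adjusted p = 1.14e-06, limma). EFEMP1, the matrix protein fibulin-3, went from 8.35 and 8.39 to 6.61 and 6.51, and P3H3, of the collagen prolyl hydroxylase family, from 12.74 and 12.69 to 11.04 and 11.04. IGF2, the fetal growth factor, fell 4.66-fold from 10.52 and 10.62 to 8.38 and 8.32. H19, the imprinted noncoding RNA gene next to it and chosen after its value was seen, fell 2.89-fold, from 10.51 and 10.54 to 9.18 and 8.82. IGF2 and H19 were therefore lower together in both PIM1 + WT samples.

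Cancer-testis genes on the X chromosome, which are silent in most adult tissues outside the germline, were lowered in a group. MAGEA1 went from 9.36 and 9.37 in WT to 7.69 and 7.76 in PIM1 + WT, and CSAG1 from 12.40 and 12.46 to 10.78 and 10.79. Among all 11 tested genes of the MAGEA and CSAG families, a set chosen after these values were seen, 6 were called lower, where 0.459% of all genes were, and 0 higher, with a median of -1.27 and a range from -1.65 to 0.01. The other 4 were CSAG4, MAGEA6, MAGEA2B and MAGEA12, at -1.62, -1.501, -1.28 and -1.27. The copies in these families are near-identical, so a probe may read more than 1 of them. The 18 other MAGE genes tested had a median of 0.09 and a range from -0.71 to 0.60, and 0 were called. Several of them, and some MAGEA genes not called, were not well above background in either group. In those genes a fall could hardly show, so the 2 sets are not an even comparison.

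Other lowered genes were regulators. MDFI, an inhibitor of myogenic transcription factors, fell 5.26-fold from 10.64 and 10.64 to 8.33 and 8.17. ARHGEF40, a guanine nucleotide exchange factor, fell 3.75-fold, TESC, a calcineurin B homologous protein, 3.36-fold, and OXTR, the oxytocin receptor, 3.29-fold. HIRA, a chaperone of the variant histone H3.3, went from 11.19 and 11.31 to 9.29 and 9.40. LTB, the tumour necrosis factor family ligand lymphotoxin beta, went from 8.84 and 8.77 to 7.02 and 7.30. ZC3H7B, a zinc finger RNA-binding protein, and KBTBD11, a kelch protein, fell 3.33-fold and 3.27-fold. The groups did not overlap in any of these 8.

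**Figure D3:**
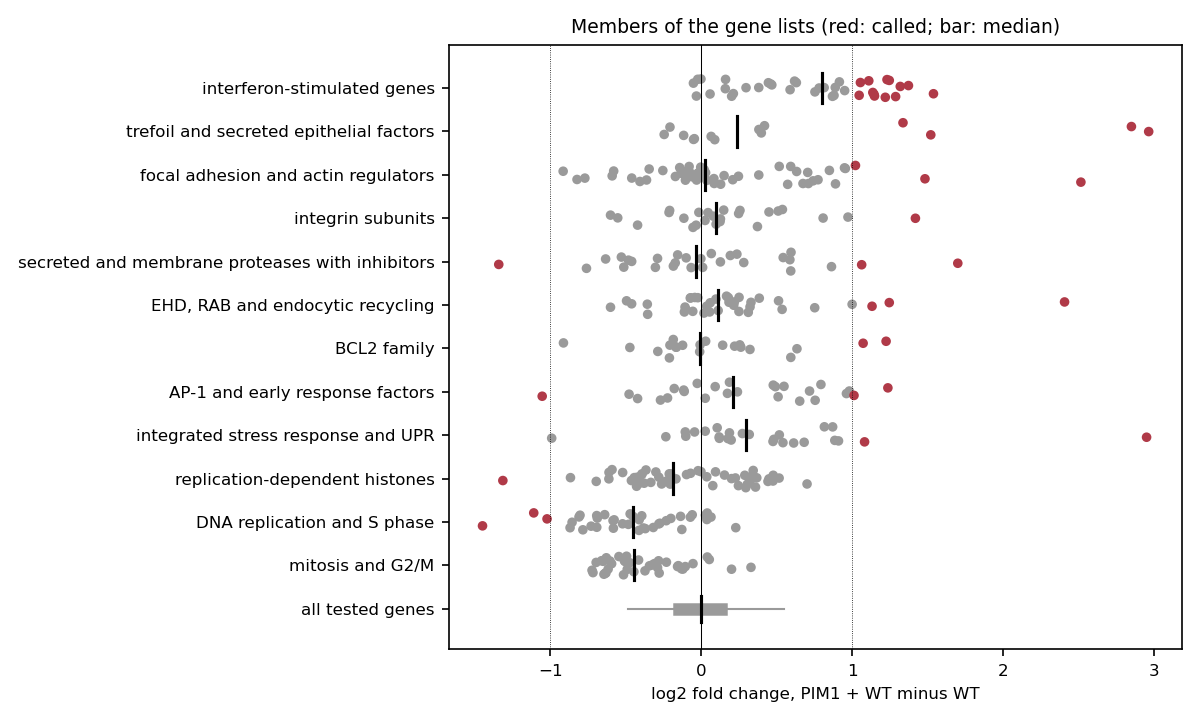
Log2 fold change of PIM1 + WT minus WT (x axis) for each member of 12 gene lists, with called genes in red, others in grey and the list's median as a bar. The lowest row gives the middle 90% (line) and the middle 50% (thick line) of all 25900 genes; the interferon list lies to the right of it, with a median of 0.80, and the S phase and mitosis lists to the left, with medians of -0.45.

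Cell cycle genes were lower by small amounts. Of 39 DNA replication and S phase genes, 26 were lower and 1 higher at adjusted p alone, where 13.9% of all genes were lower, and the list's median was -0.45. The 3 called were GINS4, a subunit of the replicative helicase, RFC5, of the clamp loader, and CDC45, which activates the helicase. GINS4 went from 12.22 and 12.26 in WT to 10.80 and 10.79 in PIM1 + WT, RFC5 from 12.79 and 12.77 to 11.64 and 11.69, and CDC45 from 12.62 and 12.62 to 11.64 and 11.55. CDC45 was not called without PIM1 + WT replicate 2 (-0.98). Of 39 mitosis and G2/M genes, 25 were lower and 1 higher at adjusted p alone, with the same median of -0.45, but 0 reached the fold threshold. The largest differences there were those of the mitotic kinase AURKA (-0.72) and of cyclin B2, CCNB2 (-0.72). In bulk RNA, fewer cycling cells and less of these transcripts per cell cannot be told apart. With median centring the medians were -0.75 and -0.71, but only 9 S phase genes and 0 mitosis genes passed at adjusted p.

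Probes of RNAs made outside the messenger pathway went in both directions. Whether the labelling reads these RNAs, or the histone RNAs below, in proportion to their amount was not tested. The 18S ribosomal RNA probe, RNA18SN5, gave 12.86 and 12.84 in WT and 9.85 and 10.05 in PIM1 + WT, a 7.45-fold fall. RNA28SN5 and RNA5-8SN5, the other ribosomal RNAs cut from the same precursor and looked at after this value was seen, were also lower, by 2.68-fold and 2.12-fold. RNU12, the U12 small nuclear RNA of the minor spliceosome, rose 2.27-fold from 9.06 and 9.06 to 10.26 and 10.22. RN7SL1, the RNA of the signal recognition particle, differed by -0.97 and RN7SK, which holds the elongation factor P-TEFb, by -0.70, short of the threshold. The list of 14 small noncoding and Pol III RNAs, which also holds the 18S probe, had a median of -0.28 and 1 called gene in each direction. Over all genes 0.811% were called higher and 0.459% lower. Of 52 replication-dependent histone genes 1 was called, H3C15, which went from 12.95 and 12.90 to 11.58 and 11.63. At adjusted p alone, 11 histone genes were higher and 22 lower, where 13.3% of all genes were higher and 13.9% lower.

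Factors that act beside NFATC1 on DNA were examined as a list of 26 AP-1 and early response factors. JUNB and JUND rose, from 8.04 and 7.96 to 9.21 and 9.26 (2.35-fold) and from 8.48 and 8.34 to 9.38 and 9.46 (2.01-fold), while JUN fell from 10.40 and 10.49 to 9.36 and 9.42 (2.08-fold). The list held 2 genes called higher and 1 called lower, where 0.811% and 0.459% of all genes were, and its median was 0.21. JUND lay close to the fold threshold and was not called without WT replicate 2 (0.94), without PIM1 + WT replicate 2 (0.98) or with median centring (0.88, adjusted p = 0.0706).

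NFAT factors and targets held no called gene, where 1.27% of all genes were called, so the lists are near that share. Of 21 NFAT factors and calcineurin genes, 7 were lower and 0 higher at adjusted p alone, where 13.9% and 13.3% of all genes were. NFAT5 was at -0.51 and DYRK2, a kinase that phosphorylates NFAT, at -0.53. The list of 23 known NFAT target genes had 18 tested, and in 4 of these neither group was well above background, so a call could hardly arise. At adjusted p alone, 4 of the 18 were lower and 1 higher. MMP9, a gelatinase, was at -0.76 and CCND1, cyclin D1, at 0.48 (adjusted p = 0.358). RCAN1, the calcineurin inhibitor whose short transcript is a classical NFAT target, gave 10.33 and 10.28 in WT and 10.27 and 10.15 in PIM1 + WT (-0.10, adjusted p = 0.545). Of 23 PIM kinases and substrates 1 was called, where 0.459% of all genes were called lower. That gene, MYB, a haematopoietic transcription factor, fell 2.10-fold from 8.51 and 8.47 to 7.37 and 7.47.

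In the BCL2 family both directions of cell death control were represented. BAK1, a pore-forming death effector, rose 2.33-fold from 11.62 and 11.55 to 12.81 and 12.81. BCL2L1, which encodes the survival protein BCL-XL, rose 2.10-fold from 10.21 and 10.28 to 11.32 and 11.31. They were the 2 called among 21, whose median was -0.01, where 0.811% of all genes were called higher. Of 28 proteases and inhibitors 2 were called higher and 1 lower, where 0.811% and 0.459% of all genes were. ADAMTS1, a secreted protease of proteoglycans, rose 3.24-fold from 7.49 and 7.62 to 9.23 and 9.28. MMP14, the membrane-bound collagenase, rose 2.09-fold from 8.54 and 8.49 to 9.55 and 9.60, and CTSZ, a lysosomal cathepsin, fell 2.54-fold from 9.21 and 9.17 to 7.84 and 7.86. With median centring BAK1 (0.91, adjusted p = 0.137), BCL2L1 (0.80, adjusted p = 0.151) and MMP14 (0.91, adjusted p = 0.0535) were not called.

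Single genes were called in 4 more lists. Over all genes 0.811% were called higher and 0.459% lower, so 1 call in a list of this size says little about the list. IL11, a cytokine of the interleukin-6 family, fell 2.44-fold, from 9.33 and 9.30 to 7.97 and 8.09, as the only one of 30 cytokines and chemokines. DSP, the desmosome protein desmoplakin, was the only one of 21 epithelial state markers, and fell 2.84-fold, from 9.64 and 9.63 to 8.10 and 8.16. MVD, an enzyme of the mevalonate pathway, rose 2.07-fold among 28 cholesterol and lipid genes, and DTX2, a deltex ubiquitin ligase, 2.58-fold among 28 Notch pathway genes. MVD was not called with median centring (0.86, adjusted p = 0.0943). In the lists of mesenchymal markers (COL6A2 0.86 and S100A4 0.79), cytosolic ribosomal proteins (RPL18 0.56), ribosome biogenesis (RRP9 0.64 and PES1 0.57), glycolysis and hypoxia (CA9 -0.87 and PFKL 0.85) and oxidative phosphorylation (NDUFB7 0.61 and ATP5F1D 0.59), 0 genes were called, though CA9, at -1.02, was with median centring.

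Markers of the line itself were present in both groups. KRT18 and KRT19, keratins of simple epithelium, lay between 14.12 and 15.94 in the 4 samples and VIM between 15.02 and 15.33. The androgen-response genes showed 0 called of 12, where 1.27% of all genes were called. KLK2 and ACP3 lay between 6.07 and 6.60, at the low end of the range, and FKBP5 was at -0.62 and TMPRSS2 at -0.49. Markers of other cell types showed 0 called of 16: PTPRC, of leukocytes, lay between 6.447 and 6.503 and COL1A2, of fibroblasts, between 6.33 and 6.36. PECAM1, of endothelium, was low but differed by 0.89 (1.06 and called with median centring), and CD68 by 0.52. Reference genes often used as constant differed as well: ACTB by 0.46, GAPDH by 0.53, TUBB by 0.73 and TBP by -0.33, and with median centring ACTB and GAPDH differed by 0.16 and 0.15.

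**Figure D4:**
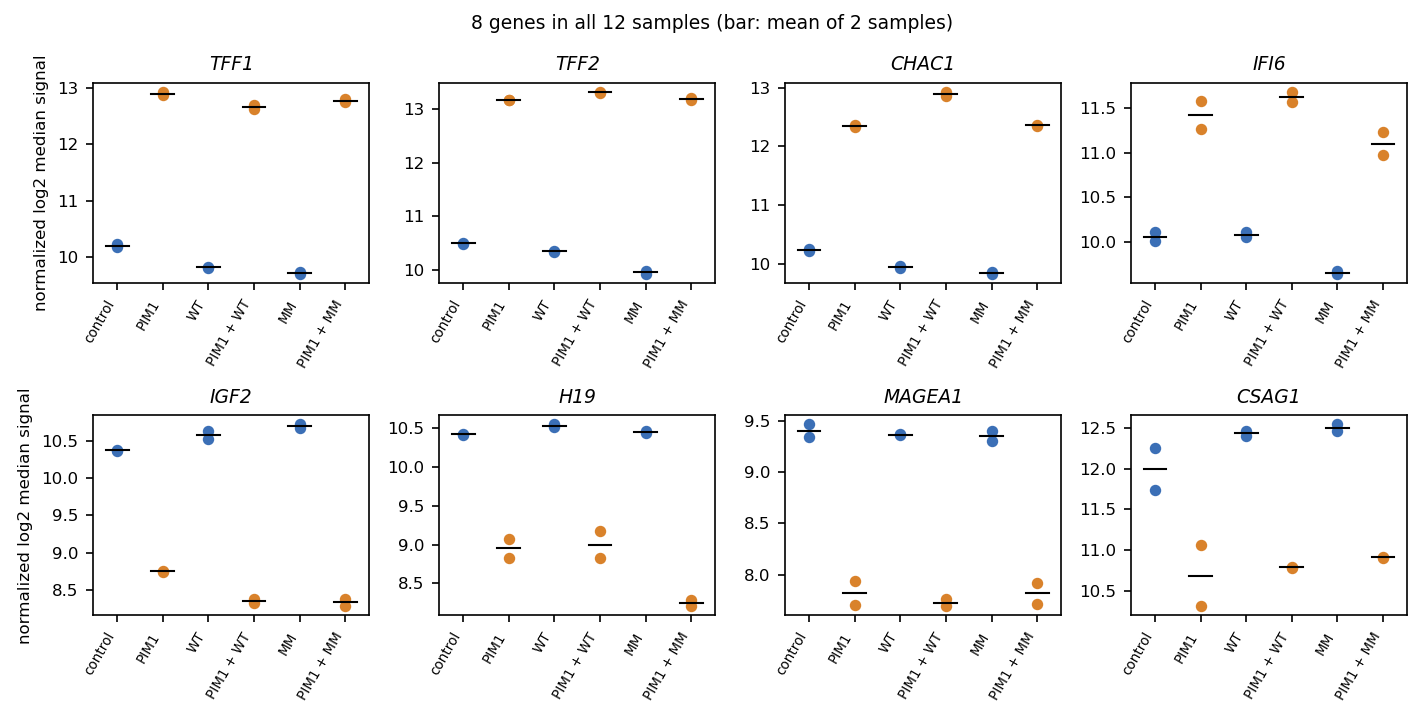
Normalized log2 median signal (y axis, different range in each panel) of 8 genes in each of the 12 samples, with stable PIM1 pools in orange, mock pools in blue and a bar at the mean of the 2 samples. In all 8 genes the 6 samples with stable PIM1 lie apart from the 6 without it, above for TFF1, TFF2, CHAC1 and IFI6 and below for IGF2, H19, MAGEA1 and CSAG1.

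Most of the called genes differed in the same direction when wild-type NFATC1 was absent. The same stable pools were also compared with MM NFATC1 in both, on these arrays but in the Cy5 channel, and without NFATC1 on other arrays. The 3 comparisons share the pools but no sample. With MM NFATC1, 226 genes were called (0.873%), and without NFATC1 301 (1.16%). Of the 329 genes called here, 326 had the same sign with MM NFATC1 and 315 without NFATC1, and 312 in both. The share of all genes with the same sign is not given here, so these counts stand without a comparison. Called in the same direction were 165 with MM, which is 50.2% of the 329 and 73.0% of the 226, and 165 without NFATC1, which is 50.2% of the 329 and 54.8% of the 301. All 3 comparisons called 122 genes, 62 higher and 60 lower. TFF2 was at 2.96 with wild-type, 3.23 with MM and 2.67 without NFATC1, CHAC1 at 2.95, 2.52 and 2.12, and HAPLN2 at -2.95, -2.49 and -1.55. The interferon list had medians of 0.80, 0.80 and 0.76, the S phase list of -0.45 and -0.39 with wild-type and MM NFATC1.

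Whether the PIM1 difference was unlike with the 2 forms of NFATC1 was tested as the difference between the wild-type and the MM comparison. All samples of the former carried Cy3 and all of the latter Cy5. On the NFATC1 probe that rose with transfection, WT was 0.90 and MM 4.42 above control. The form of NFATC1, its level and the dye therefore cannot be told apart in this test. Over all genes 13 were called (0.0502%), 9 with a higher (0.0347%) and 4 with a lower (0.0154%) value in the wild-type comparison. The 13 became 162 without PIM1 + MM replicate 1, 31 without PIM1 + WT replicate 2, 21 without WT replicate 2, 7 without WT replicate 1 or PIM1 + WT replicate 1, and 0 with median centring. At adjusted p alone, 436 were higher (1.68%) and 124 lower (0.479%). Among the 329 called genes, 74 differed more strongly from 0 with wild-type than with MM NFATC1 at adjusted p under 0.05, of which 68 were higher genes, and 5 higher genes differed less. The genes had been called for a large value under wild-type NFATC1, which favours this direction. The count was not stable: it was 9 without WT replicate 1 or without PIM1 + WT replicate 1, 19 without WT replicate 2, 33 without PIM1 + WT replicate 2, 29 and 30 without MM replicate 1 or 2, 49 without PIM1 + MM replicate 2 and 0 with median centring.

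**Figure D5:**
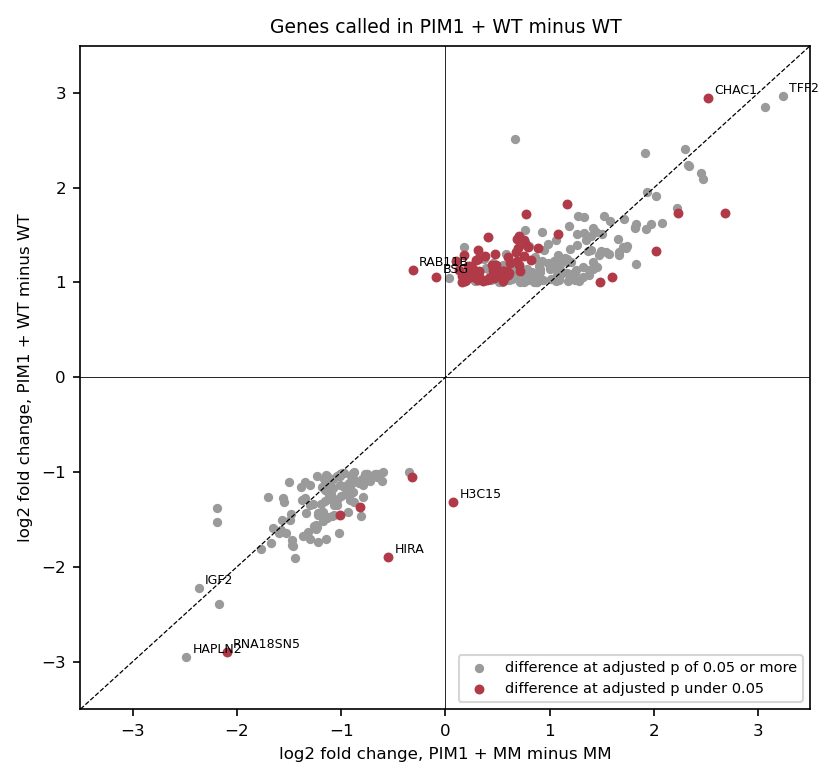
Log2 fold change of PIM1 + WT minus WT (y axis) against PIM1 + MM minus MM (x axis) for the 329 genes called in the first, with genes whose 2 values differ at adjusted p under 0.05 in red and the line of equal values dashed. Of the 329 points, 326 have the same sign on both axes, and RAB11B, BSG and H3C15 are the 3 that do not.

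RAB11B showed the largest such difference, 1.44 (adjusted p = 0.00495, limma): it rose by 1.13 with wild-type NFATC1 and was at -0.31 with MM. BSG (basigin, an inducer of matrix metalloproteinases) rose by 1.06 and was at -0.09 with MM, NSMF was at 1.22 and 0.10, SCAF1, an SR-related protein, at 1.30 and 0.18, and ZYX at 1.48 and 0.41. The differences of these 4 genes lay between 1.07 and 1.15. Without NFATC1, where Cy5 is set against Cy3, RAB11B was at 0.63, BSG at 0.96, NSMF at 0.64, SCAF1 at 0.90 and ZYX at 1.25. All of them were thus higher with PIM1 in that comparison too. BSG (0.75, adjusted p = 0.19) and SCAF1 (1.03, adjusted p = 0.0943) were not called under wild-type NFATC1 with median centring. Adhesion genes were among those with a difference: it was 0.65 for ITGA3 (adjusted p = 0.0129) and 0.62 for ITGA5 (adjusted p = 0.0403). ITGA5 was at 0.97 with wild-type, 0.35 with MM and 0.27 without NFATC1, and ITGA3 at 1.42, 0.77 and 1.31. JUNB and JUND were at 1.23 and 1.01 with wild-type and at 0.30 and 0.16 with MM, and BCL2L1 at 1.07 and 0.15. Without NFATC1, JUNB, JUND and BCL2L1 were at 0.36, 0.34 and 0.39. In the other direction, H3C15 was at -1.32 with wild-type and 0.08 with MM, HIRA at -1.90 and -0.55, and HMOX1, the haem-degrading stress enzyme, at -1.06 and -0.32. At adjusted p alone the difference was negative in 10 of 52 histone genes and 7 of 14 small noncoding RNAs, and positive in 1 of each. Whether the probes of both lists follow the amount of RNA was not tested. With wild-type, with MM and without NFATC1 the histone list's medians were -0.19, 0.13 and -0.53. Those of the small noncoding list were -0.28, 0.16 and -1.27. S100P rose by 1.33 with wild-type and by 2.02 with MM. H3C15, HIRA and HMOX1 were also low in PIM1 cells without NFATC1, at -2.87, -1.67 and -1.05, in a comparison that sets Cy5 against Cy3.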

How the data were processed

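The authors deposited, per the labels and file headers, the raw intensity (median signal and background) and processed signal of each spot from Agilent Feature Extraction 11.0.1.1, and log2 values that were quantile-normalized per spot. By the study's methods the authors imported the raw values with limma, used the 90th percentile of negative control probes as a lower limit, applied log2 and quantile normalization, and took medians by Agilent's symbols; other upstream steps are not given in the sources used here. The same order was followed here on log2 median signals. Chosen here were the removal of spots flagged as outliers, the rule that a probe pass in at least 2 of 12 channels (31674 of 34127 kept), symbols from RefSeq (18946 of 25900 genes) and the thresholds for a call. One limma model (limma 3.58.1, R 4.3.3) with a mean per group was fitted to all 12 samples, two-sided, with Benjamini-Hochberg adjustment. All 12 samples had values for every named gene. Members and gene lists were chosen with earlier results of these data known. Named genes were the targeted and reference genes, the 15 largest called changes in each direction, up to 6 called members of each list (otherwise the 2 largest), and the 5 largest differences between NFATC1 forms in each direction; others are marked as chosen later. Fits were tested on simulated data. Alternatives covered background, scaling, filter, probe choice, blocks and left-out samples. Precision is limited by 2 arrays per group. Some named genes are not reported here.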

Additional observations from a re-analysis of the deposited data

Results flagged for a closer look

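The PIM1 difference was unlike with wild-type and MM NFATC1, by the test of the difference itself in limma at adjusted p under 0.05, in 29 of the 98 genes named by rule, against 1.68% of all genes with a higher and 0.479% with a lower value in the wild-type comparison. Up to 5 genes in each direction were named for this difference, so their choice sets part of the count. Of the 98, 67 were called in PIM1 + WT minus WT, most of them named for a large value there. That value enters the difference, so the choice favours a larger one with wild-type NFATC1. The count is therefore not comparable with the shares over all genes. It was larger with wild-type NFATC1 for RAB11B (1.44), BSG (1.15), NSMF (1.12), SCAF1 (1.12), ZYX (1.07), NHERF2 (0.95), JUNB (0.94), STXBP2 (0.93), BCL2L1 (0.92), JUND (0.85), COL6A2 (0.79), MMP14 (0.78), RNU12 (0.74), DTX2 (0.67), LGALS3BP (0.66), ITGA3 (0.65), ITGA5 (0.62), ATP5F1D (0.59), CD68 (0.59), NDUFB7 (0.57), MVD (0.49) and CHAC1 (0.43). It was lower for H3C15 (-1.39), HIRA (-1.35), RNA18SN5 (-0.80), HMOX1 (-0.73), S100P (-0.68), RASD1 (-0.50) and GINS4 (-0.44). Of these, S100P and RASD1 rose in both comparisons, and less with wild-type NFATC1, while RNA18SN5 and GINS4 fell in both, and more with wild-type NFATC1. The form of NFATC1, its level and the dye differed together between the 2 comparisons and cannot be told apart. No cause was tested.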

How the results depend on the processing

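The count of 329 called genes stayed within 1.5 times under all alternatives (308 to 412 genes) but the processed signal, which called 1228; there PIM1 + MM minus MM called 769, PIM1 minus control 945 and the difference between NFATC1 forms 48, and the median of all genes was 0.14. A similar count did not mean the same genes: median centring called 320, but only 201 of the 329 in the same direction. Median centring called 104 genes in PIM1 + MM minus MM, 1638 in PIM1 minus control and 0 for the difference, left 5 interferon genes called higher, 9 S phase and 0 mitosis genes lower at adjusted p, and 0 of the 74 genes with a larger wild-type effect. Loess scaling called 22 genes for the difference, and the array as a random block gave 125 in place of the 74. Leaving out 1 sample gave 308 to 390 called genes in PIM1 + WT minus WT, 224 to 367 in PIM1 + MM minus MM (367 without PIM1 + MM replicate 1), 313 to 377 in PIM1 minus control, 7 to 162 for the difference and 9 to 72 for the larger wild-type effects. The cause was not tested. With the brightest probe NFATC1 was at 0.20 in place of -0.44. Of the 67 named genes called, 48 stayed called throughout and 19 were lost in at least 1 setting, 0 with a changed sign; without a test, values within each slide kept every called sign. The replicate block, with the slide as the pairing, called 332 genes and changed no other call by over 1.5 times; same-numbered samples deviated together between WT and PIM1 + WT (r = 0.17), but not between every pair of groups. With 2 samples per group and dimmer PIM1 + WT channels, small differences near background were not resolved.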
